A study of Mus musculus with 6 samples.

Results

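Long non-coding RNAs with established symbols were followed in mouse embryonic stem cells that lack the histone methyltransferase Dot1l. The set was defined by a rule on symbols, chosen with earlier results of these data known. It takes the Platr and Snhg series and microRNA host genes named by a plain number. A fixed group of well-known transcripts, such as Malat1, Neat1, Gas5 and Kcnq1ot1, completes it. The rule found 53 members among the 19571 genes of the gene table, and all 53 carry a p-value. They comprise 27 Platr genes, 13 Snhg genes, 3 microRNA host genes and 10 other named transcripts. In the GENCODE annotation 50 members have a non-coding biotype, and 3 of them (Platr17, Platr25 and Snhg11) are annotated as protein-coding genes. Rmrp and Rpph1, the RNA components of RNase MRP and RNase P, were also part of the rule and were not analysed here.

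The cells are E14, a mouse embryonic stem cell line, grown on gelatin in medium with serum and the cytokine LIF. The study compared 3 samples of Dot1L-/- cells (KO), edited by CRISPR/Cas9, with 3 of wild-type cells (WT). Every sample is labelled day 14, with no statement of what the day is counted from, and the labels do not say how many knock-out clones were used. Total RNA was sequenced, and the deposited tables hold the authors' comparison of the genotypes with no values per sample. The spread between single libraries and their overlap can therefore not be shown, library depths are unknown, and the standard error (SE) of each fold change is the only measure of replicate spread. Nothing says whether replicates were separate cultures, so a p-value reflects only how much these samples vary, which may be technical.

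The sign convention of the fold changes is not written in the tables. Positive values were taken to mean more RNA in Dot1l KO, because the literature reports that Dot1l holds down the retroviral element MERVL in such cells, and MERVL-int stood at 1.96 ± 0.38 (SE) with DESeq2 adjusted p = 0.000107 per the authors' deposited table of repeats. Under the opposite convention all directions given here would flip. Dot1l itself had -0.16 ± 0.25 with DESeq2 adjusted p = 0.845 per the authors' deposited table, so its RNA level does not check the labels. As a check of cell type, all 21 pluripotency genes listed had a row, with a median mean of 11838 normalized counts (reads divided by the authors' library size factors, averaged over all libraries). Of these 21, 1 rose and 2 fell (Dppa3 and Nr0b1) at a DESeq2 adjusted p under 0.05, beside 5.34% and 1.25% of all genes. The smallest p-values were those of Dppa3 at -2.17 ± 0.38 and of Tbx3, which rose, at 1.24 ± 0.36 per the authors' deposited table.

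Long non-coding RNAs act in several ways. Some are scaffolds of nuclear bodies, such as Neat1 in paraspeckles, and some silence neighbouring genes in cis, such as the imprinted antisense RNA Kcnq1ot1. Others are mainly carriers: small nucleolar RNAs (snoRNAs), which guide the chemical modification of ribosomal RNA, and microRNAs are cut from the introns or exons of host transcripts whose spliced remainder is often degraded quickly. The Platr genes take their name, pluripotency-associated transcript, from their expression in embryonic stem cells. Dot1l methylates lysine 79 of histone H3 along transcribed genes.

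Of the 53 members, 2 passed the test, both Platr genes and both higher in Dot1l KO, and none was lower at a DESeq2 adjusted p under 0.05. That is 3.77% of the members, beside 6.58% of all genes tested, of which 5.34% were higher and 1.25% lower. At an unadjusted p under 0.05, 4 members were higher and 7 lower, beside 16.2% of all genes, 10.6% higher and 5.55% lower. With 2 calls among 53, the share does not set these RNAs apart from the table. Their median log2 fold change was -0.25, and that of all genes was -0.02. After the median of genes of like mean count was subtracted, the members' median was -0.14.

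**Figure D1:**
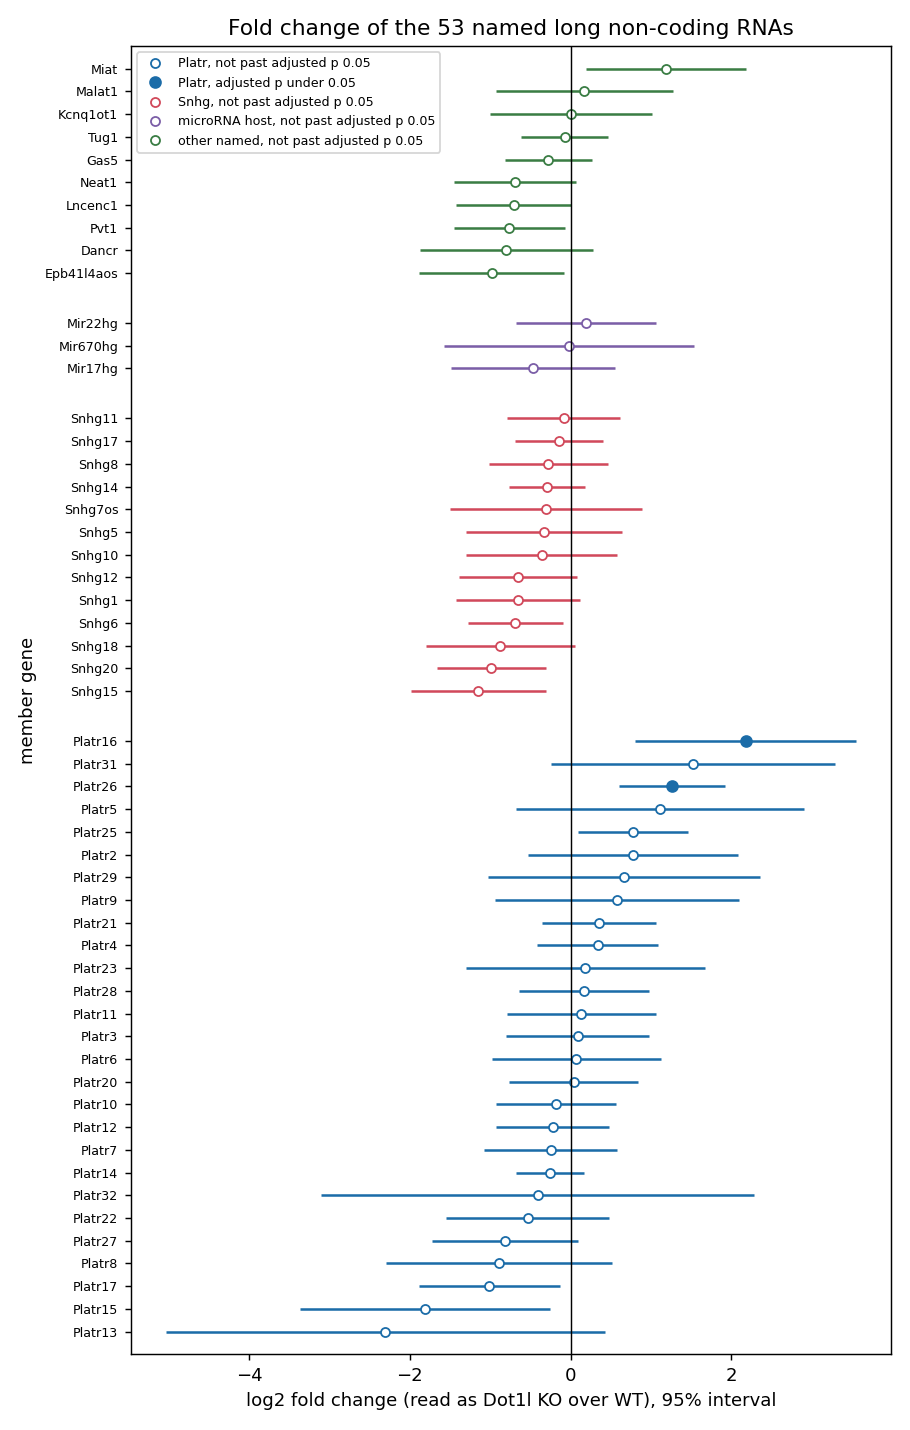
Log2 fold change, read as Dot1l KO over WT, of each of the 53 members with its 95% interval, grouped by class (colour). Filled points mark the 2 members with an adjusted p under 0.05, Platr16 at 2.18 and Platr26 at 1.26. All 13 Snhg genes lie to the left of 0, whereas 16 of the 27 Platr genes lie to the right.

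Platr26 (chromosome 2, 71719417 to 71730966, GRCm38, plus strand) had the smallest p of the set. Its mean was 306.9 normalized counts, which with equal group sizes implies a group mean of 181.1 in WT and 432.7 in KO. The authors' deposited table gives a log2 fold change of 1.26 ± 0.34 (SE), or 2.39-fold, with DESeq2 adjusted p = 0.00546. Its SE is close to that of genes of like abundance, whose median is 0.36. The nearest protein-coding gene, Itga6, a laminin receptor subunit that starts 14650 bases away on the same strand, had 0.05 ± 0.37 with DESeq2 adjusted p = 0.976 per the authors' deposited table.

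The promoter of Platr26 is shown because it is the called member for which a RefSeq start is at hand, and no other gene of the table overlaps it. RefSeq (GRCm38.p6) places the window of 300 bases at chr2:71719167-71719466 on the plus strand. Capitals mark the first 50 bases of the transcript.
Platr26: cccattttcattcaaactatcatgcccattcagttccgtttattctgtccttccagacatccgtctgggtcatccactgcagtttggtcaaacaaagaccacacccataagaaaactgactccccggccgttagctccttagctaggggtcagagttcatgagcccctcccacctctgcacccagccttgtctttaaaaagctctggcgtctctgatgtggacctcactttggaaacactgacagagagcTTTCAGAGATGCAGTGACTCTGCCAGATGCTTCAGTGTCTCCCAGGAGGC
Both strands were searched for the POU octamer ATGCAAAT, bound by Pou5f1, and for the TATA box TATAAA, the CCAAT box CCAAT, the GC box GGGCGG and the E-box CACGTG. None of these letters occurs in this window. Among 32851 RefSeq windows of the same length, the octamer occurs in 1.74%, the TATA box in 13.6%, the CCAAT box in 37.4%, the GC box in 35.7% and the E-box in 7.15%. Of the 34 members with a RefSeq window, 1 holds the octamer, 5 the TATA box, 16 the CCAAT box, 16 the GC box and 2 the E-box. These are counts of genes, whereas the shares are of windows, and a gene can have more than 1 window.

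Platr16 (chromosome 4, 145410245 to 145449756, plus strand) is the other called member and is weakly expressed, at a mean of 28.3 normalized counts. The implied group means were 10.2 in WT and 46.3 in KO. The authors' deposited table gives 2.18 ± 0.70 with DESeq2 adjusted p = 0.0334. Its exons share 290 bases on the same strand with those of Gm13230, a transcribed pseudogene that also rose, at 1.97 ± 0.52 with DESeq2 adjusted p = 0.00468 and a mean of 321.7 per the authors' deposited table. How reads in shared exons were assigned is not stated, so the value of Platr16 carries that uncertainty. The call on Platr16 also ended when fold changes were centred on the median of genes of like abundance (adjusted p = 0.140), since weakly expressed genes of this table lean to positive values.

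The remaining 25 Platr genes did not pass and went both ways. Over all 27 the median log2 fold change was 0.09, from -2.31 to 2.18, and 16 were above 0 and 11 below. They are mostly rare transcripts, with a median mean of 84.0 normalized counts and 8 of 27 under 50, and the median of the bins of abundance they fall in was 0.23. Platr15 had -1.81 ± 0.79 and DESeq2 adjusted p = 0.188 per the authors' deposited table, with implied means of 81.3 in WT and 23.2 in KO. Platr17, annotated as protein-coding and 2739 bases from the histone chaperone gene Daxx, had -1.01 ± 0.45 and DESeq2 adjusted p = 0.191 per the authors' deposited table, while Daxx had -0.57 ± 0.35 with DESeq2 adjusted p = 0.456.

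The 2 most abundant Platr genes lay near 0, while Platr17, the third, is the lower one given above. Platr10, with a mean of 2342 normalized counts, had -0.18 ± 0.38 per the authors' deposited table, an SE 1.24 times the median of genes of like abundance and a 95% interval of -0.92 to 0.57. Platr14, a transcript of undifferentiated stem cells with a mean of 1869, had -0.26 ± 0.22 per the authors' deposited table, the smallest SE of the 53 members, and an interval of -0.68 to 0.17. A change of either by 2-fold or more in either direction lies outside these intervals. The sizes of Platr13 (interval -5.04 to 0.42, mean 5.85) and Platr32 (-3.11 to 2.28, mean 6.89), in contrast, could not be settled at their depth.

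**Figure D2:**
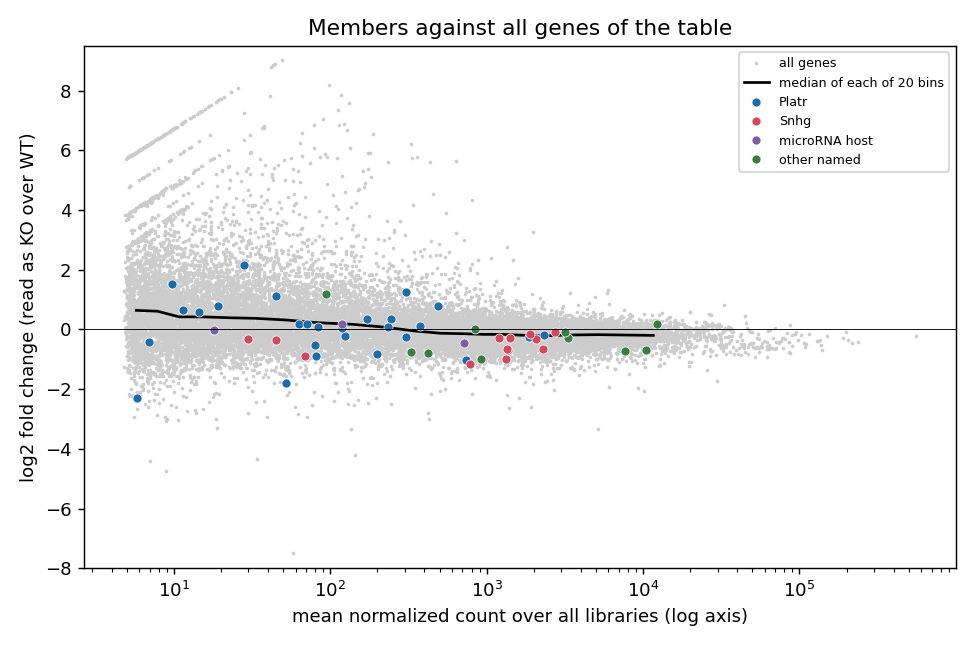
Log2 fold change (vertical axis, read as Dot1l KO over WT) against the mean normalized count over all libraries (horizontal log axis) for all 19571 genes in grey and the members in colour by class. The black line joins the medians of 20 bins of mean count and falls from 0.64 in the lowest bin to -0.20 in the highest, and most Snhg points lie below it.

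Snhg stands for small nucleolar RNA host gene, and these genes lay on one side of 0. All 13 had a negative log2 fold change, from -1.15 to -0.09 with a median of -0.36, although none passed the test of DESeq2 and 3 had an unadjusted p under 0.05, where 5.55% of all genes were lower. In the bins of abundance they fall in, 61.0% of genes are below 0 on average, so a lean to negative values is shared with other well-expressed genes. The counts stayed at 13 of 13 when fold changes were centred on the median of the table, and 11 of 13 were below the median of their own bin, the exceptions being Snhg11 and Snhg17.

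Snhg15 (chromosome 11, 6525591 to 6528760) had implied means of 1086 normalized counts in WT and 490.3 in KO. The authors' deposited table gives -1.15 ± 0.43 with DESeq2 adjusted p = 0.0891. Snhg20 (chromosome 11, 117076008 to 117078955) had implied means of 1755 in WT and 886.1 in KO, and -0.99 ± 0.35 with DESeq2 adjusted p = 0.0608 per the authors' deposited table. These are the members just outside the threshold, on the lower side. Snhg6 (chromosome 1, 9941959 to 9944118) had -0.69 ± 0.30 with DESeq2 adjusted p = 0.184, and Snhg18 (chromosome 15, 32240565 to 32244662), at a mean of only 68.7, had -0.87 ± 0.47 with DESeq2 adjusted p = 0.354, both per the authors' deposited table.

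Among the most abundant Snhg genes, Snhg11 lay nearest to 0 of the class and Snhg1 lay further from 0 than the class median. Their differences from each other were not tested. The authors' deposited table gives Snhg11 -0.09 ± 0.36, Snhg1 -0.66 ± 0.39 and Snhg5 -0.33 ± 0.50, with DESeq2 adjusted p of 0.950, 0.433 and 0.834. Snhg14, the long transcript of the Prader-Willi region that runs antisense to the ubiquitin ligase gene Ube3a, had -0.30 ± 0.24 with an interval of -0.77 to 0.18, and Ube3a had 0.01 ± 0.32, per the authors' deposited table. The exons annotated for both share 1803 bases on opposite strands, and whether counting used strand is not stated, so reads there cannot be told apart.

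The annotation was used to see which members hold a snoRNA, which the Snhg symbols already imply in large part. An annotated snoRNA or small Cajal body RNA lies inside 15 members on the same strand: 12 of the 13 Snhg genes (Snhg7os, an antisense gene, has none) and also Gas5, Dancr and Epb41l4aos. The split was chosen after values were seen, and since 12 of the 15 are the Snhg genes just described, its counts are a description and no separate result. All 15 had a negative log2 fold change, with a median of -0.66, and 13 of 15 were below the median of their bin. Of the 38 members without one, 20 were above 0 and 18 below, with a median of 0.02. Abundance differs between these sets, with a median mean of 1354 normalized counts among the 15 and 121.4 among the 38. Its part in the difference was not tested beyond the centring by bins, after which the medians were -0.49 and -0.06. None of the 15 passed the test of DESeq2, and 4 had an unadjusted p under 0.05, 3 of them the Snhg genes counted above, beside 5.55% of all genes lower.

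The growth-arrest transcript Gas5 (chromosome 1, 161034422 to 161038539), with 10 snoRNAs inside, had implied means of 3631 in WT and 3000 in KO. The authors' deposited table gives -0.28 ± 0.28 with DESeq2 adjusted p = 0.716. Dancr (chromosome 5, 74093060 to 74095406), described as a brake on differentiation, had -0.80 ± 0.55 with DESeq2 adjusted p = 0.521, and Epb41l4aos (chromosome 18, 33794892 to 33795986) had -0.98 ± 0.46 with DESeq2 adjusted p = 0.238, both per the authors' deposited table.

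**Figure D3:**
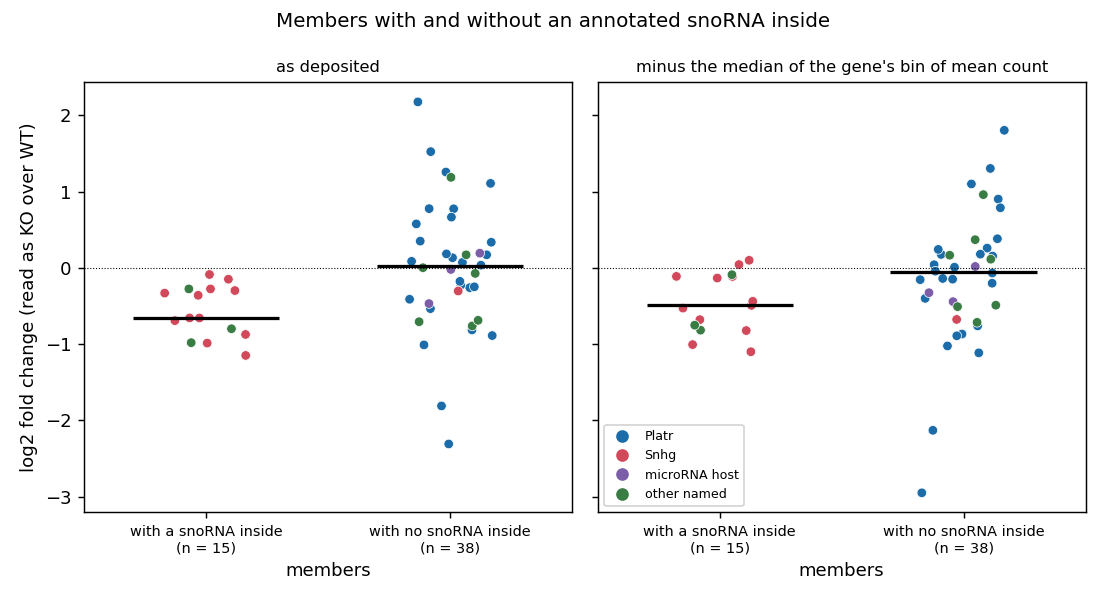
Log2 fold change (read as KO over WT) of the 15 members with an annotated snoRNA inside and the 38 without, as deposited (left) and after subtracting the median of genes of like mean count (right). 12 of the 15 are Snhg genes. Points are genes coloured by class and bars are medians, at -0.66 and 0.02 on the left and at -0.49 and -0.06 on the right.

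Few of the carried RNAs have a row of their own. The box C/D snoRNA Snord87, inside an intron of Snhg6, had -1.17 ± 0.96 at a mean of 19.4, and Scarna13, inside Snhg10, had 0.62 ± 1.01 at a mean of 12.8, per the authors' deposited table. Neither passed (DESeq2 adjusted p of 0.626 and 0.851), and at this abundance a small RNA row can also hold reads of the unspliced host. The sequence of Snord87 (GENCODE, GRCm38, chr1:9942463-9942549, minus strand) is shown as an example of what such a host carries. Capitals mark the letters TGATGA of its C box and CTGA of its D box.
Snord87: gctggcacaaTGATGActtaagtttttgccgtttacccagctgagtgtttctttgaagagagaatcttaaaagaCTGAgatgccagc

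Many snoRNA hosts and ribosomal protein genes begin with a terminal oligopyrimidine tract, a C followed by pyrimidines at the very start of the RNA that ties its translation and stability to growth signals. A C followed by at least 4 pyrimidines, beginning within 10 bases of a RefSeq start on the transcribed strand, was found in 6 of the 13 snoRNA-holding members that have a RefSeq window. It was found for 34.4% of all 27025 genes with a window, so the share among the hosts is not far from that of other genes. The 6 starts are shown over 50 bases each, RefSeq GRCm38.p6, because a tract at the start is the sequence feature for which such hosts are known. The first 15 bases lie before the annotated start and the other 35 begin at it. Capitals mark the match, which begins at the annotated start only in Snhg8. It begins inside the RNA in Snhg5 and before the annotated start in Gas5, Snhg12, Snhg10 and Snhg18. A match away from the start need not be a terminal tract.
Gas5: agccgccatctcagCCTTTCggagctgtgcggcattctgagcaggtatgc
Snhg8: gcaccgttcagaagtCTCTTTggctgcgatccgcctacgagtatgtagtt
Snhg12: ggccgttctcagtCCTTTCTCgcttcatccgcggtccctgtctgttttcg
Snhg5: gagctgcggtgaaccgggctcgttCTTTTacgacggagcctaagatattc
Snhg10: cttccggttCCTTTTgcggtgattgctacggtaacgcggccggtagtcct
Snhg18: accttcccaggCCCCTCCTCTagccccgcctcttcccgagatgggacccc
The 6 members with such a match include neither the snoRNA holders nearest to 0 (Snhg11 and Snhg17) nor the lowest (Snhg15 and Snhg20). Gas5 and Snhg8 stand at -0.28 and -0.28, Snhg5 at -0.33, Snhg10 at -0.36, Snhg12 at -0.66 and Snhg18 at -0.87 per the authors' deposited table.

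Protein-coding genes that host snoRNAs, mostly ribosomal protein and translation factor genes, also lay mostly below 0, and their difference from the members was not tested. Of 41 listed genes, all with a row, 0 rose and 0 fell by the test of DESeq2 (0 and 1 at an unadjusted p under 0.05), and 37 of 41 were below 0 with a median of -0.44, where the median of their bins was -0.20. The smallest p-value belonged to Eef1b2, an elongation factor subunit, at -0.84 ± 0.38 with DESeq2 adjusted p = 0.219 per the authors' deposited table. Proteins of the snoRNA particles and their assembly had 0 of 16 passing in either direction (0 higher and 1 lower at an unadjusted p under 0.05). Their median was -0.29, where the median of their bins was -0.20. Among them the authors' deposited table gives Nhp2, a core protein of box H/ACA particles, -0.99 ± 0.49 with DESeq2 adjusted p = 0.281 and the helicase Ruvbl1 -0.48 ± 0.35 with DESeq2 adjusted p = 0.565.

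Spliced snoRNA hosts are also known substrates of nonsense-mediated decay. Of 16 factors of that pathway 0 rose and 1 fell, beside 5.34% and 1.25% of all genes. Their median was -0.22, where the median of their bins was -0.19. The one that fell was Pnrc2, a decapping partner of the pathway, at -0.71 ± 0.24 with DESeq2 adjusted p = 0.0429 per the authors' deposited table, and Smg9, a subunit of the Upf1 kinase complex, had -0.74 ± 0.38 with DESeq2 adjusted p = 0.316. The 11 protein subunits of RNase P and RNase MRP were all below 0, with a median of -0.39, where the median of their bins was -0.16. Of the 11, 0 passed in either direction (0 at an unadjusted p under 0.05 as well). Rpp25l had -1.03 ± 0.55 and Rpp21 -0.70 ± 0.45, with DESeq2 adjusted p of 0.338 and 0.485, per the authors' deposited table.

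The nuclear-body RNAs were the members with the most reads. Malat1 (chromosome 19, 5795690 to 5802672), which gathers at nuclear speckles, had implied means of 11570 normalized counts in WT and 13027 in KO, and 0.17 ± 0.56 with DESeq2 adjusted p = 0.938 per the authors' deposited table. Its SE is 1.89 times the median SE of genes of like abundance, the highest ratio among the 53 members, so the 95% interval runs from -0.93 to 1.27. Neat1 (chromosome 19, 5824708 to 5845478), the scaffold of paraspeckles, had implied means of 12926 in WT and 8028 in KO, and -0.69 ± 0.39 with DESeq2 adjusted p = 0.384 per the authors' deposited table. The 2 genes are neighbours on the same strand, and their difference from each other was not tested. Of 15 proteins of paraspeckles and speckles, 0 passed in either direction (0 at an unadjusted p under 0.05), with a median of -0.02. The smallest p-values were those of Rbm14 at 0.42 ± 0.22 and Pspc1 at 0.38 ± 0.35, with DESeq2 adjusted p of 0.336 and 0.675 per the authors' deposited table.

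Lncenc1 (chromosome 13, 97434970 to 97497007), an RNA of naive embryonic stem cells, was the most abundant member per length. Its implied means were 9508 in WT and 5829 in KO, and the authors' deposited table gives -0.71 ± 0.36 with DESeq2 adjusted p = 0.317, an interval of -1.42 to 0.01. Miat (chromosome 5, 112213228 to 112229395), an RNA of neurons that is also present in stem cells, had implied means of 57.4 in WT and 130.8 in KO, and 1.19 ± 0.51 with DESeq2 adjusted p = 0.171 per the authors' deposited table. Tug1 (chromosome 11, 3639785 to 3649673) had -0.07 ± 0.28 with an interval of -0.61 to 0.47 per the authors' deposited table, which leaves out a 2-fold change either way. Its exons share 483 bases with those of Morc2a on the opposite strand, which had 0.10 ± 0.23 per the authors' deposited table.

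Pvt1 (chromosome 15, 62037986 to 62378096), a long transcript downstream of the growth regulator Myc, had implied means of 411.2 in WT and 242.7 in KO and -0.76 ± 0.35 with DESeq2 adjusted p = 0.234 per the authors' deposited table. Myc, 47612 bases away, had 0.06 ± 1.15 with DESeq2 adjusted p = 0.991 per the authors' deposited table, an interval of -2.19 to 2.31, so this comparison leaves the level of Myc unsettled.

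Kcnq1ot1 (chromosome 7, 143203458 to 143296549), the paternally expressed antisense RNA of the Kcnq1 imprinted domain, had implied means of 847.6 in WT and 848.8 in KO. The authors' deposited table gives 0.00 ± 0.52 with DESeq2 adjusted p = 0.999. The interval of -1.01 to 1.01 does not leave out a 2-fold change either way. Of 12 genes of the domain with a row, 0 passed in either direction (2 higher and 1 lower at an unadjusted p under 0.05), with a median of 0.32. The smallest p-values were those of Th, the first enzyme of dopamine synthesis, at 3.23 ± 1.35 and a mean of 7.61, and of the tetraspanin Cd81 at -0.49 ± 0.24, with DESeq2 adjusted p of 0.157 and 0.266 per the authors' deposited table.

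The 3 microRNA host genes gave no calls, and none of them had an unadjusted p under 0.05. Mir17hg (chromosome 14, 115042879 to 115046727), which carries the miR-17 to miR-92 cluster active in dividing cells, had implied means of 836.5 in WT and 604.7 in KO and -0.47 ± 0.52 with DESeq2 adjusted p = 0.753 per the authors' deposited table. Mir22hg had 0.19 ± 0.45 and Mir670hg -0.02 ± 0.79 per the authors' deposited table, with DESeq2 adjusted p of 0.904 and 0.996. The exons of Mir22hg share 206 bases on the same strand with those of the protein-coding gene Tlcd2. Tlcd2 had 0.14 ± 0.40 at a mean of 127.8 per the authors' deposited table, and how reads in the shared bases were assigned is not stated. Reads of a host gene do not measure the mature microRNAs. The 6 mature microRNAs by which the Mir17hg cluster is named are shown (RefSeq, GRCm38.p6) with their seed, bases 2 to 8, in capitals.
miR-17-5p: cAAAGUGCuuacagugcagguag
miR-20a-5p: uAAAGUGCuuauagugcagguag
miR-18a-5p: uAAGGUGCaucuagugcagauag
miR-19a-3p: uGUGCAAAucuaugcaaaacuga
miR-19b-3p: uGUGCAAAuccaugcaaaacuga
miR-92a-3p: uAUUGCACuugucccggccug
The first pair shares the seed AAAGUGC and the miR-19 pair shares GUGCAAA, so the 6 carry 4 seeds. Of 15 genes for microRNA processing and its effectors, 0 passed in either direction (0 higher and 1 lower at an unadjusted p under 0.05). Their median was -0.09, where the median of their bins was -0.17. The 1 with an unadjusted p under 0.05 was Lin28a, the blocker of let-7 maturation, at -0.64 ± 0.29 with DESeq2 adjusted p = 0.226 per the authors' deposited table, followed by Drosha, the nuclear nuclease, at -0.46 ± 0.27 with DESeq2 adjusted p = 0.419.

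Per kilobase of annotated exon, the members spanned from 6.11 to 2323 normalized counts, with a median of 109.9. Lncenc1 was highest at 2323 per kb, followed by Epb41l4aos at 2155, Malat1 at 1761, Snhg8 at 1658 and Platr10 at 1342. Neat1 came to 504.4 per kb on this scale and Kcnq1ot1 to only 9.11, since its annotated exon spans the whole locus. Without values per sample the spread of these levels is unknown, and no 2 neighbours in this order can be said to differ.

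**Figure D4:**
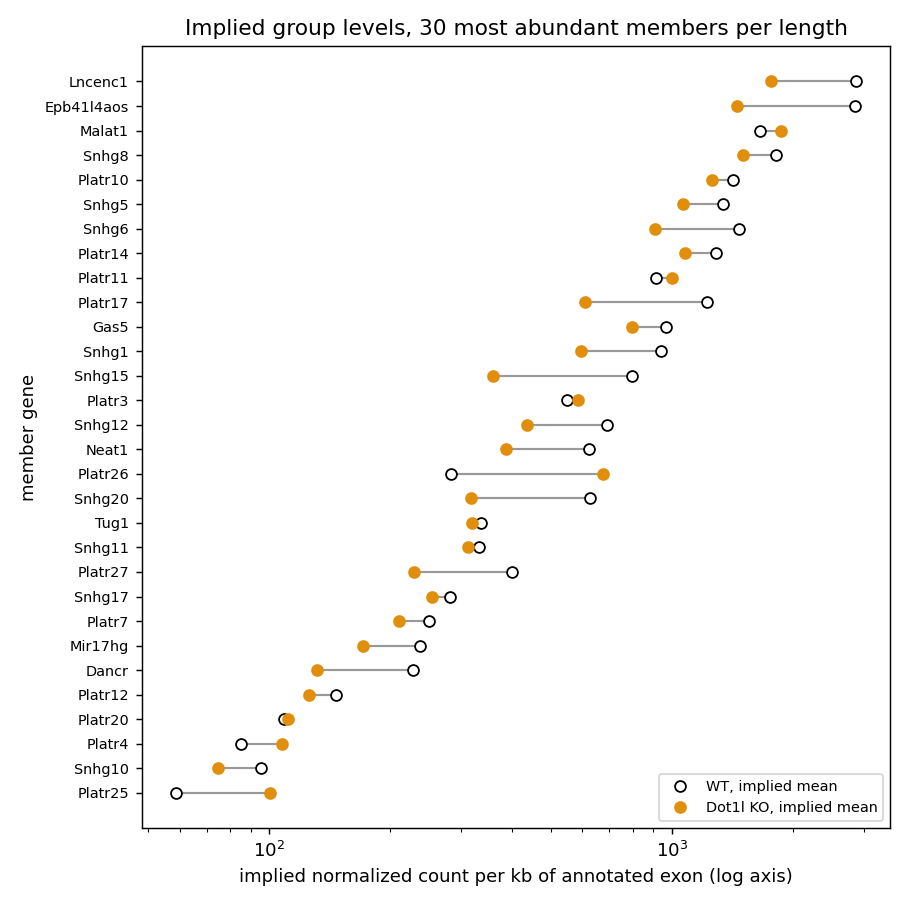
Implied mean level in WT (open) and Dot1l KO (filled), in normalized counts per kilobase of annotated exon on a log axis, for the 30 members most abundant per length. The points carry no error because the tables hold no values per sample; Platr26 is the only gene shown here whose difference passed the test, and it is higher in KO.

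Other long non-coding RNAs, outside the symbol rule, included changes with smaller p-values than any member. Of 26 listed, 17 had a row, 0 rose and 3 fell, beside 5.34% and 1.25% of all genes, with a median of -0.02. The 3 that fell are Meg3, Rian and Mirg, all transcripts of the imprinted Dlk1-Dio3 domain, so they are not 3 separate loci. Rian, a snoRNA host, had -1.98 ± 0.26 with DESeq2 adjusted p = 1.84e-11 and Meg3 had -2.07 ± 0.30 with DESeq2 adjusted p = 2.00e-09 per the authors' deposited table. Among the members that hold a snoRNA, the lower end of the 95% interval ran from -1.99 (Snhg15) to -0.70 (Snhg17), with Gas5 at -0.82. Their differences from Rian were not tested.

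Within 50 kb, 45 members have a protein-coding gene, and 40 of these nearest genes have a row. The nearest gene was on the same side of 0 as the member in 22 of 40 pairs and on the other side in 18. Of the 40, 2 rose and 0 fell. These 2 are 5.0% of the 40, near the 5.34% of all genes that were higher, so nothing is read from the count. Both stand beside a Snhg gene, a class in which all 13 values are negative. Mcmdc2, a meiotic gene on the opposite strand that overlaps Snhg6 by 127 exon bases, rose 4.01-fold (SE 0.44 on the log2 scale) with DESeq2 adjusted p = 0.000334 at a mean of 86.0 per the authors' deposited table, against the -0.69 of Snhg6 at a mean of 1363. Reads in the shared exon bases of this pair cannot be assigned without strand. Myo1g, a myosin of blood cells 4626 bases from Snhg15 on the same strand, rose by 1.19 ± 0.31 with DESeq2 adjusted p = 0.00415 per the authors' deposited table, against the -1.15 of Snhg15. Sec14l1, near Snhg20, lay just outside the threshold at -0.82 ± 0.28 with DESeq2 adjusted p = 0.0511 per the authors' deposited table.

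**Figure D5:**
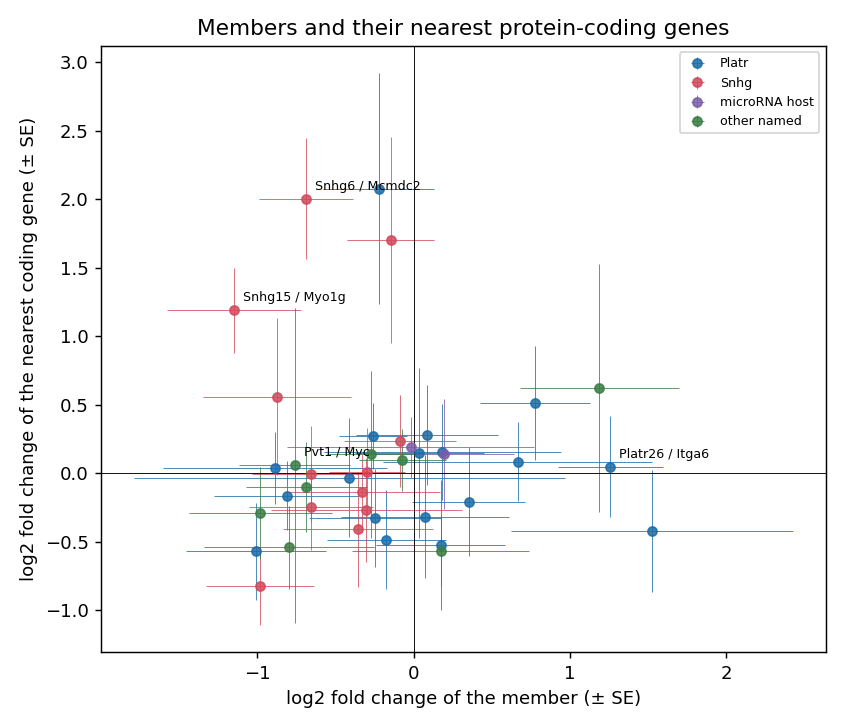
Log2 fold change of each member (horizontal axis) and of its nearest protein-coding gene within 50 kb (vertical axis), for the 40 pairs with both values; bars are SE and colours are classes. Labels mark pairs in which the member or the neighbour passed the test, and Pvt1 with Myc, whose bar is long; Mcmdc2 and Myo1g lie above 1 while their Snhg neighbours lie below 0.

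Markers of other cell states moved in the same comparison. Of the 2-cell-like markers 15 of 19 rose, beside 5.34% of all genes. Their implied summed level went from 64.6 normalized counts in WT to 3224 in KO. The most abundant of them, Zscan4d, Zscan4a and Zscan4c, had SEs of 1.31, 1.95 and 2.08 per the authors' deposited table. Zscan4c did not pass (DESeq2 adjusted p = 0.114), so this sum is only loosely determined. Of the primitive endoderm markers 8 of 13 rose, with sums of 16931 and 25126, and of the fibroblast markers 6 of 12 rose, with sums of 51177 and 37545. Most of these sums comes from abundant genes that did not pass. These are Sparc, Lamb1 and Lama1 (means of 8279, 6871 and 3234) for endoderm, and Fn1 and Vim (means of 32973 and 7641) for fibroblasts. The smallest p-values were those of Zscan4f at 6.07 ± 0.63 and Usp17le at 7.60 ± 0.86 for the 2-cell-like list, per the authors' deposited table. For primitive endoderm, Dab2 stood at 2.75 ± 0.43 and Cubn at 3.73 ± 0.61, and for fibroblasts Col1a2 at 4.03 ± 0.76 and Pdgfra, which both lists hold, at 2.18 ± 0.43, per the authors' deposited table. The fibroblast list went both ways: 4 of the 12 were below 0, none passing the test, with Acta2 at -2.25 ± 0.84 (DESeq2 adjusted p = 0.0926), Timp1 at -0.67 ± 0.36, Fn1 at -0.55 ± 0.34 and Vim at -0.48 ± 0.25 per the authors' deposited table. The lowest means were 5.59, 24.0 and 13.9 for the 2-cell-like, primitive endoderm and fibroblast lists. Each mean pools both genotypes, so it does not show whether a marker is above 0 in WT. With an implied sum of only 64.6 in WT, single 2-cell-like markers can be near 0 there, which leaves the size of their fold changes uncertain. Dux, Foxa2, Dcn, Lum and Postn were not analysed here. The part of such cells in the values of Platr26 and Platr16 was not tested, and in bulk RNA more cells of a type and more RNA per cell cannot be told apart.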

How the data were processed

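RNA of 3 Dot1l KO and 3 WT samples was compared by the authors. Per the submitters' processing notes, reads were aligned with HISAT2 2.1.0 to mm10, counted with featureCounts 2.0.0 and tested with DESeq2; the sources used here give neither its version nor the filters, strand setting and handling of multiply mapping reads. Per the file headers, the deposited signal is the mean over all libraries of counts divided by size factors, followed by the log2 fold change and its SE, while the score is the Wald statistic, and the p-value comes with its Benjamini-Hochberg adjustment. The statistic was checked to equal fold change over SE (0 of 19571 genes differed by over 0.001), and the adjustment was recomputed over the 19564 genes with a p.

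No values per sample exist in these tables, so the planned edgeR fit was not used and all calls are the authors' DESeq2 calls at adjusted p under 0.05. Computed here, with Python 3.11.15 and pandas 2.3.3: 95% intervals from a normal approximation, implied group means under equal group sizes, 20 bins of mean count, overlaps, nearest coding genes within 50 kb and exon lengths from GENCODE M21 (GRCm38, the assembly of mm10; all 53 symbols matched 1 locus each), and sequence matches in RefSeq windows (34 members matched). Recomputed Wald tests were tested on simulated data. Members and gene lists were chosen with earlier results of these data known. Named with full values were members past the threshold, in each class the 4 with the smallest p and the 3 with the highest mean, 9 fixed transcripts, and the 2 smallest p of each companion list (1 of these is not reported here); other genes given, and the split by snoRNA content, were chosen after values were seen. Alternatives were other thresholds, a fold minimum, centring on the table or within bins, a mean count of at least 50, and Bonferroni adjustment.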

Additional observations from a re-analysis of the deposited data

How the results depend on the processing

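The count of 2 higher members became 1 at adjusted p under 0.01, 1 with centring within bins of mean count, 1 with a mean count of at least 50, where Platr16 leaves the test, and 0 with Bonferroni adjustment, while the 1044 of all genes became 661, 752, 517 and 275; it stayed at 2 with an adjusted p under 0.10, a log2 fold change of at least 1, or centring on the table's median. The count of 0 lower members became 2 at adjusted p under 0.10, where the 244 of all genes became 411, and was 0 otherwise. The median of the members, -0.25, kept its sign in each alternative run, but with centring within bins it shrank to -0.14. It was -0.23 with centring on the table's median and -0.27 with a mean count of at least 50. With centring within bins, 3 of the 26 members named with full values changed sign, none of them called: Platr10 to 0.041, Snhg11 to 0.10 and Tug1 to 0.11. No paired analysis was possible because the tables hold no values per sample, and for the same reason no replicate could be left out. Depth limits the 11 members with a mean under 50, whose median SE was 0.79 against 0.41 for the other 42.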

Other observations

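Myc, looked at only because it lies next to Pvt1, had an SE of 1.15 at a mean of 1715 normalized counts per the authors' deposited table. The median SE of the 979 genes in its bin of abundance was 0.31, and 1 of them had a larger SE. Which libraries account for that spread cannot be seen in these tables. Among the members named with full values, 5 also had an SE more than 1.5 times the median of their bins: Malat1 at a ratio of 1.89, Snhg5 and Kcnq1ot1 at 1.62 each, Mir17hg at 1.58 and Dancr at 1.51.

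Host genes for neural microRNAs that fall outside the symbol rule were Mir9-3hg, at 0.88 ± 0.36 with DESeq2 adjusted p = 0.143, and Mir124a-1hg, at -0.27 ± 0.50 with DESeq2 adjusted p = 0.875, per the authors' deposited table.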
